A study of Mus musculus with 33 samples.

Results

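The RNA of 37 imprinted genes outside the H19 locus was examined in mouse embryonic stem cells (ESCs) that lacked members of the heterochromatin protein 1 family (HP1α, HP1β and HP1γ, encoded by *Cbx5*, *Cbx1* and *Cbx3*) or the H3K9 methyltransferase SETDB1. The genes were taken by name from a list of imprinted genes in 17 clusters or single loci. All 37 were found among the 55487 genes of the tables, 36 by symbol and *Nespas*, which the tables name *Gnasas1*, by its Ensembl identifier. RNA-seq libraries were made from 11 conditions of C57BL/6 ESCs with 3 libraries each: wild-type ESCs of set A and of set B, ESCs lacking *Hp1α*, *Hp1β* or *Hp1γ* alone, ESCs lacking *Hp1α* and *Hp1β* (*Hp1α/β* Δ/Δ), *Hp1α* and *Hp1γ* (*Hp1α/γ* Δ/Δ) or *Hp1β* and *Hp1γ* (*Hp1β/γ* Δ/Δ), cells lacking all of them (*Hp1α/β/γ* Δ/Δ, triple mutant cells), *Setdb1* F/F ESCs, whose *Setdb1* carries loxP sites, and *Setdb1* Δ/Δ cells made from them with Cre. The single and double mutants were constitutive CRISPR/Cas9 lines, whereas triple mutant cells arose from *Hp1α/β* Δ/Δ ESCs with a floxed *Hp1γ* after Cre transfection. Cells had been grown on mouse embryonic fibroblast feeders, which were depleted by plating, and the number of clones behind a line is not given in the sources used here. The study's methods call the libraries of a condition biological replicates, with separate Cre transfections for triple mutant cells. Whether the other replicates come from separate cultures or clones is not given, and p-values measure the spread between these libraries.

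An imprinted gene is expressed mainly from the maternal or mainly from the paternal allele. The choice is set by a germline differentially methylated region (DMR), a stretch of CpG-rich DNA that is methylated in the egg or in the sperm and keeps this mark on 1 allele in the embryo. At many germline DMRs the zinc finger protein ZFP57 binds the methylated hexamer TGCCGC and brings in KAP1 (encoded by *Trim28*) and SETDB1, which places the H3K9me3 mark that HP1 proteins read. Of the 37 genes, 22 are known as paternally expressed, 10 as maternally expressed, and 5 (*Grb10*, *Gnas*, *Trappc9*, *Ube3a* and *Inpp5f*) as imprinted in some tissues or transcripts. The promoter of 15 of the paternally expressed genes lies in a germline DMR. The cells are from an inbred strain, so that each value below sums both parental alleles.

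Total counts ran from 17331005 to 25743236 per library. Levels are given as CPM, the reads of a gene scaled to the library's total after edgeR's TMM normalization, in the order of libraries 1, 2 and 3. The targeted genes were lower but not absent in the mutants. Whether the remaining reads come from the rest of a deleted gene, from undeleted cells or from feeder cells was not tested. Over the 2 wild-type sets *Cbx5* had 439 to 490.4 CPM, *Cbx1* 373 to 448 CPM and *Cbx3* 157 to 199.8 CPM, against 85.4 to 276, 42.1 to 111 and 59.2 to 100.7 CPM in the mutants of each. *Setdb1* had 136, 133 and 131 CPM in *Setdb1* F/F ESCs and 71.6, 68.5 and 67.7 CPM in *Setdb1* Δ/Δ cells. *Cbx1*, at 169 to 176 CPM, and *Cbx3*, at 124 to 129.7 CPM, were also below both wild-type sets in *Setdb1* F/F ESCs, and *Setdb1* had 134, 139 and 139 CPM in triple mutant cells, below the 197, 209 and 197 CPM of wild-type set A. Library 2 of *Hp1α/γ* Δ/Δ ESCs stood apart from the other 2 of its condition, with a chi-square per gene of 143 to 153 against 1.91 to 13.6 in all other pairs of libraries of a condition, so that results of these ESCs are given with and without it. For 13 markers of feeder fibroblasts, wild-type set A had a summed level of 37.3 to 39.0 CPM and set B one of 57.2 to 66.4 CPM, with 12 of the 13 detected in each. *Hp1α/γ* Δ/Δ ESCs had 17.1 to 21.5 CPM (*Postn* and *Twist2* at 0), *Hp1β/γ* Δ/Δ ESCs 50.6 to 51.1 CPM, triple mutant cells 27.4 to 31.2 CPM, *Setdb1* F/F ESCs 21.0 to 21.8 CPM (*Postn*, *Lum*, *Prrx1* and *Twist2* at 0) and *Setdb1* Δ/Δ cells 17.6 to 17.7 CPM. For 9 pluripotency markers, all detected in every condition, the summed level of wild-type set A was 3523 to 3542 CPM, that of *Setdb1* F/F ESCs 7687 to 7723 CPM, that of the *Hp1α/γ* Δ/Δ line 5911 to 8144 CPM, and that of triple mutant cells 1395 to 1436 CPM. In triple mutant cells, 6 of 8 trophoblast markers were higher and 1 lower, 3 of 8 tested primitive endoderm markers were higher and 3 lower, 2 of 3 tested mesoderm markers were lower, and 2 of 5 neural markers were higher and 2 lower. The part of feeder RNA and of the pluripotent state in the results below was not tested, and fewer cells that express a gene and less RNA per cell cannot be told apart in these bulk libraries.

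**Figure D1:**
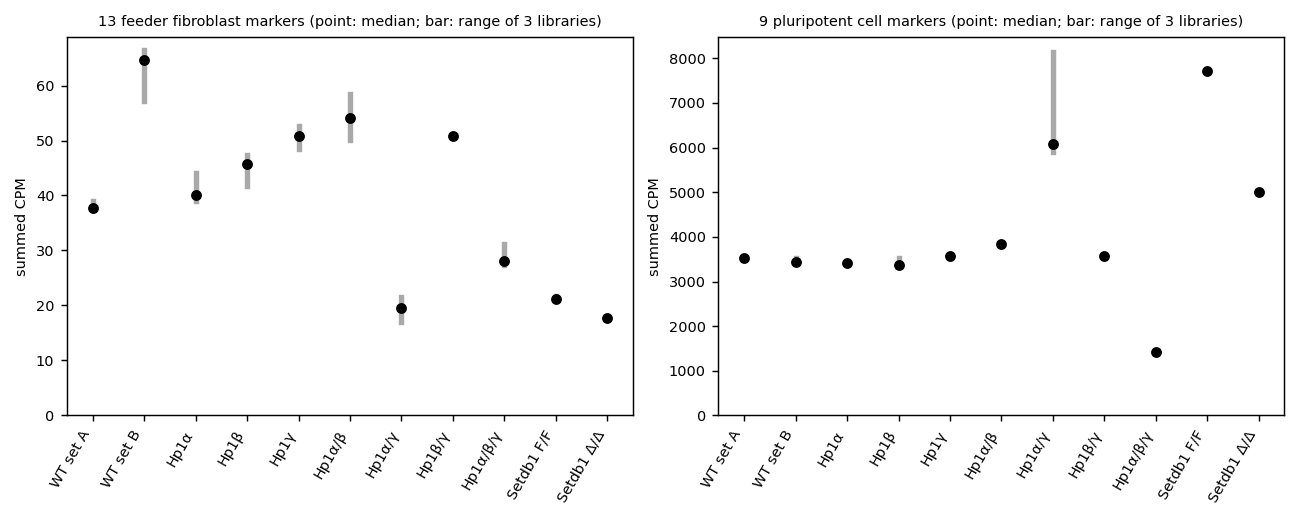
Summed CPM of 13 feeder fibroblast markers (left) and 9 pluripotent cell markers (right) in each condition, with the median of 3 libraries as a point and their range as a bar. Fibroblast markers were lowest in Hp1α/γ Δ/Δ, Setdb1 F/F and Setdb1 Δ/Δ cells, at 17.1 to 21.8 CPM, and pluripotency markers were lowest in triple mutant cells, at 1395 to 1436 CPM.

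RefSeq promoter sequences (GRCm38.p6, 250 bases before to 50 after a transcript's start) were at hand for 28 of the 37 genes. Shown here are the 250 bases before the start of *Airn* (chr17:12741061-12741310, plus strand), *Peg3* (chr7:6730420-6730669, minus strand), *Nap1l5* (chr6:58907127-58907376, minus strand), *Nnat* (chr2:157559828-157560077, plus strand) and the upstream start of *Zdbf2* (chr1:63200108-63200357, plus strand), since conditions differed widely at these paternally expressed genes. Capitals mark CpG dinucleotides, the sites at which a DMR is methylated. The *Peg3* promoter overlaps that of *Usp29*, which is transcribed the other way, by 263 bases.
Airn: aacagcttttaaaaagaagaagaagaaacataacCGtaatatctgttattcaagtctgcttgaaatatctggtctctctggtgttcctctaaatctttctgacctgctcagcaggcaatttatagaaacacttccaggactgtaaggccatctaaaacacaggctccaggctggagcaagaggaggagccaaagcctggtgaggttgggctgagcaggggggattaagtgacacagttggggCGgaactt
Peg3: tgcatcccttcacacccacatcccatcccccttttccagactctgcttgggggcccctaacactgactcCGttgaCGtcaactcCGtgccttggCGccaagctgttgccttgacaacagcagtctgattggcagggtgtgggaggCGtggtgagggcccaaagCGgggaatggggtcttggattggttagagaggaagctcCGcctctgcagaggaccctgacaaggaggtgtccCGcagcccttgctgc
Nap1l5: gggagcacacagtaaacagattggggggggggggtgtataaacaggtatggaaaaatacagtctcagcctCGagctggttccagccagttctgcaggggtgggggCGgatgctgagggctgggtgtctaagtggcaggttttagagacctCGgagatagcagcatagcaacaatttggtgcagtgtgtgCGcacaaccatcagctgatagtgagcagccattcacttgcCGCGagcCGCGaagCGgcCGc
Nnat: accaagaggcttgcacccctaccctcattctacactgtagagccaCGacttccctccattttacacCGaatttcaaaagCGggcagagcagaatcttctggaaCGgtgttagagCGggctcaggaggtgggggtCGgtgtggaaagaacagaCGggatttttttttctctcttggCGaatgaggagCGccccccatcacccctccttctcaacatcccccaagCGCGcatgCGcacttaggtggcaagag
Zdbf2: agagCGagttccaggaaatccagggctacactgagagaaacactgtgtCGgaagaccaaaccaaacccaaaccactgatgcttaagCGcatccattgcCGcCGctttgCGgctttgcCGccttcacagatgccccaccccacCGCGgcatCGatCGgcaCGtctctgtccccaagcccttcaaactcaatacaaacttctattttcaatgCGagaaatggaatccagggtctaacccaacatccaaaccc
The *Airn* stretch held 2 CpGs, and the others held 8 (*Peg3*), 10 (*Nap1l5*), 12 (*Nnat*) and 13 (*Zdbf2*). The ZFP57 hexamer TGCCGC, searched on both strands, occurred 3 times in the *Zdbf2* stretch, once in that of *Nap1l5* and not in those of *Peg3*, *Nnat* and *Airn*. Over the 300 bases, it was present in 5 of the 10 genes with a promoter in a germline DMR that had a sequence, in 4 of the other 18, and in 13.1% of the 27025 genes with a promoter sequence. A gene was counted if any of its windows held a match. The hexamer itself holds a CpG, and these shares were not matched for CpG content (a median of 7 CpGs over all promoter windows) or for the number of windows. *Zdbf2* was counted among the other 18 with a match, although its matches lie in the window of its upstream start. Whether that upstream start lies in a germline DMR was not examined, and the counts depend on it. The second window of *Zdbf2* (chr1:63273019-63273318) held no match. DNA methylation and protein binding were not measured in these libraries, and a match is a description of the letters only.

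In wild-type ESCs the imprinted genes spanned a wide range of levels. Per kilobase of transcript, *Phlda2*, which restrains growth of the placenta, was highest at 141 to 156 CPM per kb in wild-type set A. It was followed by the growth factor receptor adaptor *Grb10* (90.2 to 92.7 CPM per kb), the splicing protein gene *Snrpn* (71.1 to 77.3), *Gnas* (65.7 to 68.0), which encodes the stimulatory G protein α subunit, and the zinc finger gene *Peg3* (55.4 to 57.3). These 5 did not overlap each other in range, whereas *Nnat* (50.8 to 53.7 CPM per kb) and *Peg10* (49.95 to 51.95) did. Of the 37 genes, 14 exceeded 10 CPM per kb, 14 lay between 1 and 10, and 9 lay below 1. The lowest were *Airn* (0.0337 to 0.269 CPM per kb), the potassium channel gene *Kcnq1* (0.0765 to 0.137) and its antisense RNA *Kcnq1ot1* (0.0825 to 0.0995), whose ranges overlapped. Of the 36 pairs of neighbours in this order, 17 overlapped in range. *Airn* and *Kcnq1ot1* are long antisense RNAs that are mostly unspliced, and the length behind these values is that of the annotated exons in the tables (1375 bases for *Airn* and 93092 for *Kcnq1ot1*).

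Between the wild-type sets, labelled with 1 genotype, few imprinted genes differed. Of 35 imprinted genes tested in set B against set A with edgeR's quasi-likelihood test, 1 was called, that is, had a p under 0.05 after Benjamini-Hochberg adjustment and a log2 fold change above 1 or below −1, beside 5.68% of all genes tested (2.55% higher and 3.12% lower). This was *Peg13*, a noncoding RNA in an intron of *Trappc9*, with 2.87, 2.32 and 2.38 CPM in set A and 1.58, 1.21 and 0.778 CPM in set B (log2 fold change −1.08, SE 0.277, adjusted p = 0.00958). The sets did not overlap, but the call was lost without library 3 of set B (log2 fold change −0.85) or library 1 of set A (−0.98). For the other 34 genes, log2 fold changes ran from −0.71 (*Nap1l5*) to 0.84.

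The loss of all HP1 proteins was followed in triple mutant cells against wild-type set A. The study describes RNA of the floxed line after a Cre or a control vector, but no condition here is labelled as floxed cells with a control vector. Cre transfection and the parental line thus also differ in this comparison and cannot be told apart from HP1 loss. The study also reports apoptosis and cell cycle arrest after Cre, whose part was not tested. Of 36 imprinted genes tested, 17 were called, 4 higher and 13 lower, while 42.3% of all genes tested were called in this comparison (25.1% higher and 17.1% lower). Of the 9 maternally expressed genes tested, 7 were lower, 1 was higher, and 1 (*Ascl2*, at a log2 fold change of −0.95) was not called, with a median log2 fold change of −2.1 against 0.035 over all genes tested. Of the lower genes, *Cdkn1c*, *Phlda2* and *Slc22a18* share the *Kcnq1* cluster, and *Meg3*, *Rian* and *Mirg* the *Dlk1*–*Meg3* cluster. The count and the median thus do not rest on separate loci. Of the 22 paternally expressed genes, 3 were higher and 5 were lower, with a median of 0.36. The 15 genes with a promoter in a germline DMR had a median of 0.31, with 2 higher and 3 lower.

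**Figure D2:**
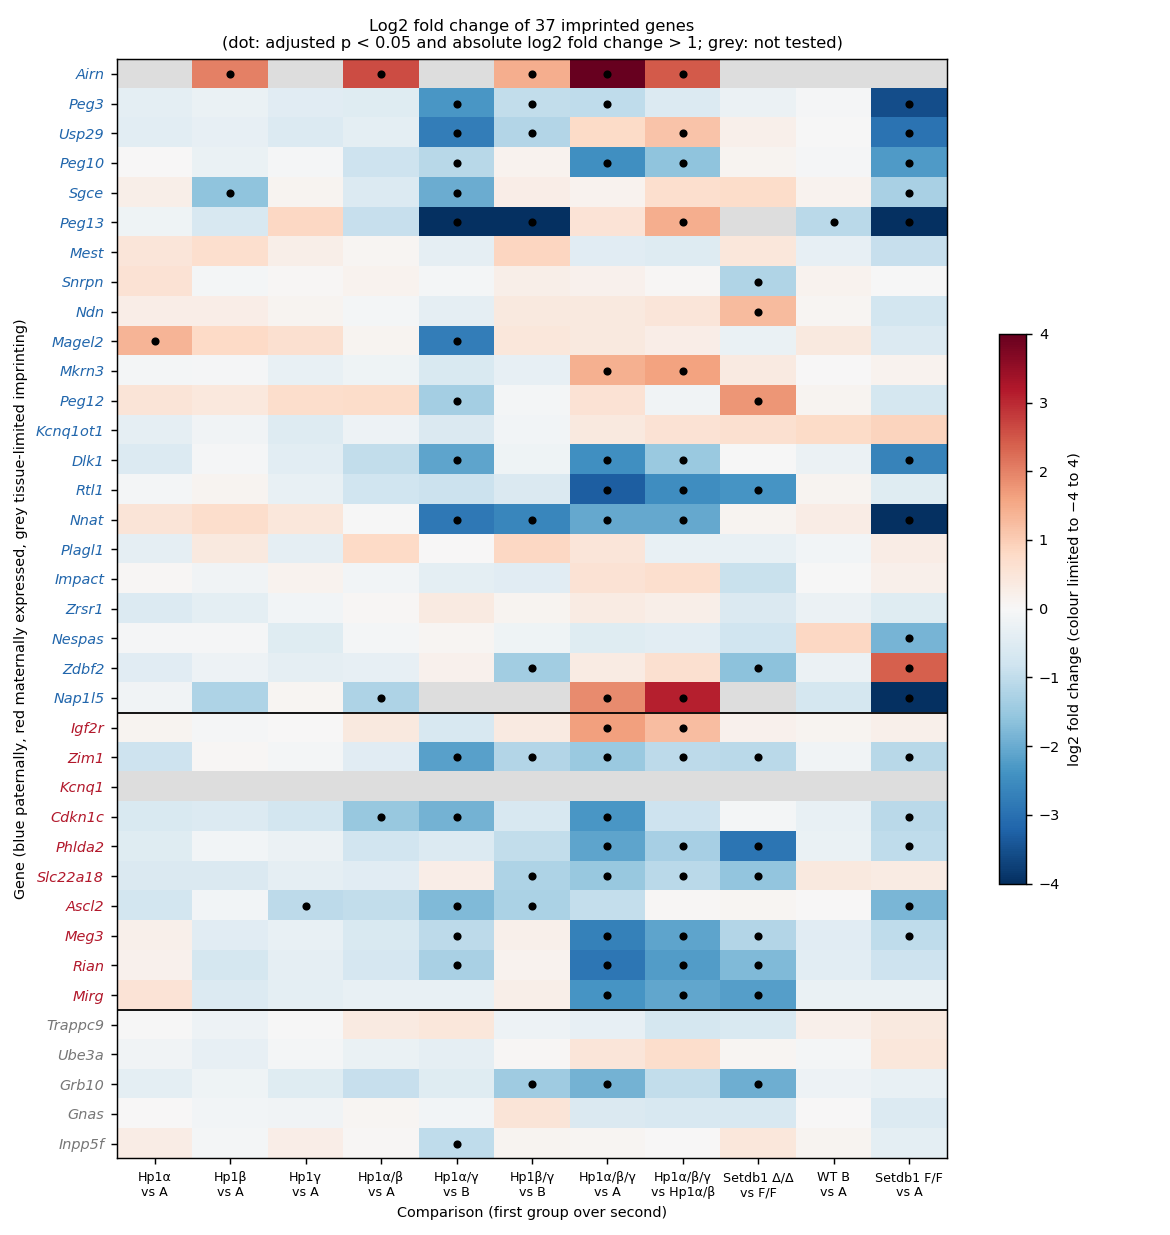
Log2 fold change of the 37 imprinted genes (rows, grouped by the expressed allele) in 11 comparisons (columns), with blue for lower and red for higher in the first group, colour limited to −4 to 4, grey for genes not tested and a dot for called genes. In triple mutant cells 17 of 36 genes carry a dot, and 15 of 34 in Hp1α/γ Δ/Δ ESCs, beside 42.3% and 23.1% of all genes tested, against 1 to 3 of 35 or 36 where 1 HP1 protein, or HP1α and HP1β, were lost, beside 4.87% to 9.1% of all genes.

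At the *Igf2r* cluster on chromosome 17, the maternally expressed receptor gene and the paternally expressed antisense RNA both rose. *Igf2r* (GRCm38 chr17, 12682406 to 12769664, minus strand) encodes the receptor that clears IGF2 and carries mannose 6-phosphate enzymes to lysosomes, and *Airn* (12741311 to 12860136, plus strand), whose transcription silences *Igf2r* on the paternal allele in differentiated cells, starts within it. *Airn* had 0.370, 0.0463 and 0.242 CPM in wild-type set A and 7.12, 8.32 and 6.89 CPM in triple mutant cells, a log2 fold change of 5.08 (SE 0.320, adjusted p = 2.21e-11). *Igf2r* had 139, 144 and 139 CPM in wild-type set A and 438, 417 and 426 CPM in triple mutant cells, a log2 fold change of 1.64 (SE 0.029, adjusted p = 6.10e-20). All mutant libraries lay above all wild-type libraries for both. The genes overlap on opposite strands by 28354 bases, and the strand setting of the counting is not given in the sources used here, so that reads in the overlap cannot be assigned to either with certainty.

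At the *Dlk1*–*Meg3* cluster on chromosome 12, every gene of the list fell. *Meg3*, *Rian* and *Mirg* are maternally expressed noncoding RNAs that host microRNAs and small nucleolar RNAs, and *Dlk1* and *Rtl1* are paternally expressed genes for a non-canonical Notch ligand and a retrotransposon-derived protein. *Meg3* had 399, 405 and 412 CPM in wild-type set A and 60.3, 62.5 and 60.5 CPM in triple mutant cells, a log2 fold change of −2.69 (SE 0.030, adjusted p = 1.02e-22). *Rian* went from 374, 371 and 375 CPM to 47.3, 48.0 and 50.3 CPM (−2.91, SE 0.031). No library of the mutant came near the wild-type range of either. *Mirg* had 9.99, 11.3 and 9.89 CPM and 1.42, 1.19 and 3.17 CPM (−2.36, SE 0.234). On the paternal side, *Dlk1* had 9.90, 9.496 and 11.8 CPM and 1.33, 2.28 and 1.97 CPM (−2.45, SE 0.185). *Rtl1* had 2.68, 2.55 and 3.10 CPM and 0.257, 0.380 and 0.193 CPM (−3.29, SE 0.364). The listed maternally and paternally expressed genes of the cluster thus had log2 fold changes of the same sign, with adjusted p of at most 1.03e-07. The strand setting of the counting is not given, so that reads of *Rtl1* cannot be assigned to its strand with certainty.

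**Figure D3:**
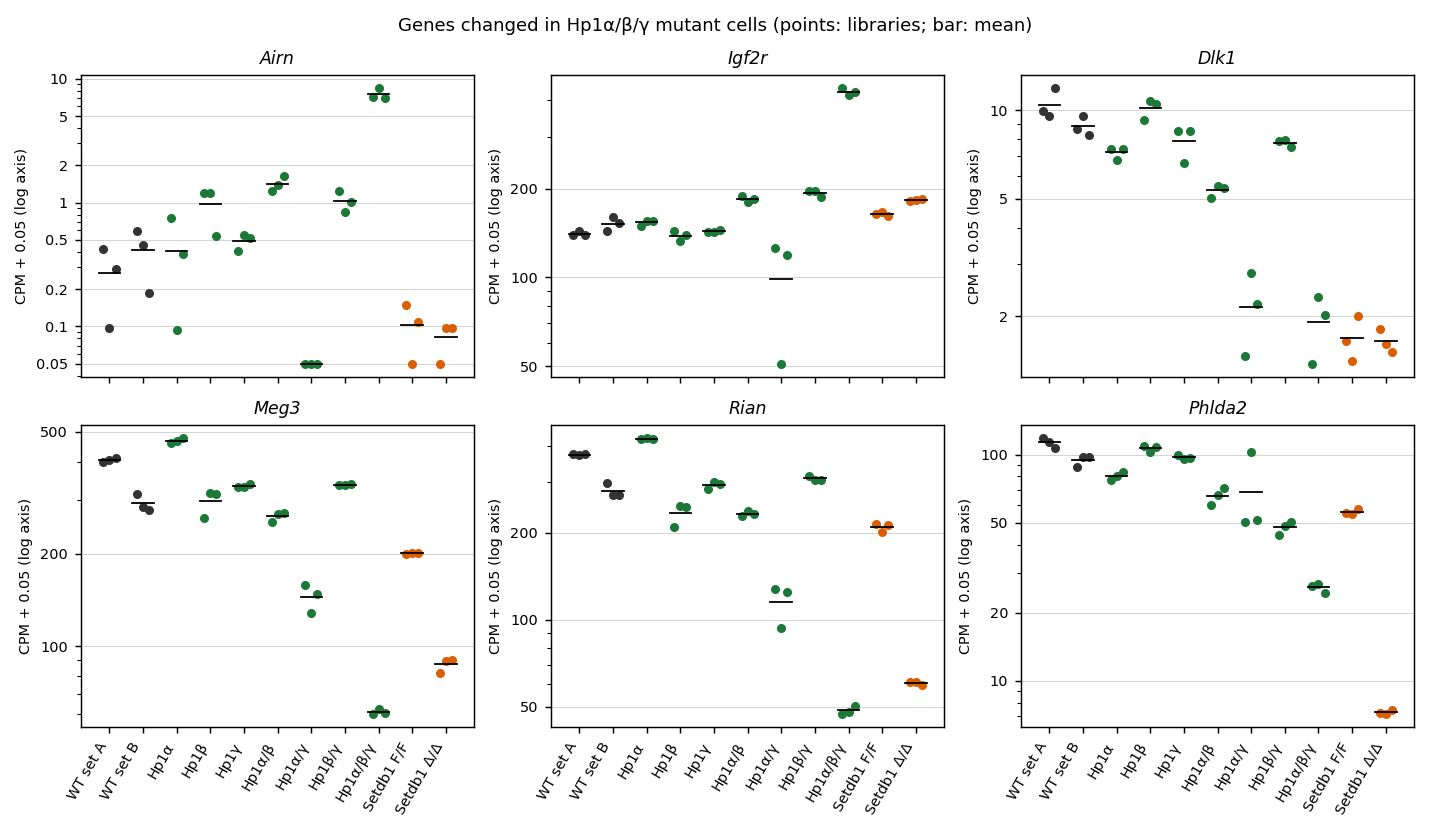
CPM plus 0.05 on a log axis for Airn, Igf2r, Dlk1, Meg3, Rian and Phlda2 in the 11 conditions, with each library as a point (wild-type black, Hp1 mutants green, Setdb1 lines orange) and the mean as a line. Igf2r and Airn were highest in triple mutant cells, where Meg3 fell to 60.3 to 62.5 CPM from 399 to 412 CPM in wild-type set A, and Phlda2 was lowest in Setdb1 Δ/Δ cells at 7.11 to 7.41 CPM.

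In the *Kcnq1* cluster of distal chromosome 7, in which the paternally expressed antisense RNA *Kcnq1ot1* silences a group of maternally expressed genes, the maternally expressed genes *Cdkn1c*, *Phlda2* and *Slc22a18* fell. *Cdkn1c*, which encodes the cell cycle inhibitor p57, had 75.6, 85.7 and 80.8 CPM in wild-type set A and 15.96, 16.1 and 14.7 CPM in triple mutant cells (log2 fold change −2.34, SE 0.065, adjusted p = 5.60e-17). *Phlda2* had 118, 114 and 107 CPM and 26.2, 26.8 and 24.4 CPM (−2.097, SE 0.054), and the transporter gene *Slc22a18* had 3.98, 3.84 and 5.19 CPM and 1.16, 1.33 and 1.86 CPM (−1.53, SE 0.243). For each of these 3 genes the groups did not overlap. *Kcnq1ot1* itself had 7.68, 8.29 and 9.26 CPM and 11.2, 10.3 and 10.9 CPM, a log2 fold change of 0.40 that did not pass the fold threshold. *Ascl2*, a transcription factor gene of the trophoblast, had 7.91, 6.25 and 8.39 CPM and 3.35, 4.18 and 3.83 CPM. *Kcnq1*, which contains *Kcnq1ot1* on the opposite strand, held too few reads to be tested in any comparison, at most 0.750 CPM in any library.

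Among the single loci and smaller clusters, *Peg10*, *Nnat* and *Grb10* fell. *Peg10*, a retrotransposon-derived gene needed by the placenta, had 346, 341 and 333 CPM in wild-type set A and 59.0, 61.9 and 62.3 CPM in triple mutant cells (log2 fold change −2.44, SE 0.032), whereas its divergent neighbour *Sgce* (ε-sarcoglycan) had 4.16, 4.68 and 4.12 CPM and 6.43, 3.76 and 3.79 CPM (0.14, not called). Their promoters share a germline DMR, and the difference between their changes was not tested. *Nnat*, a gene for a small membrane proteolipid in an intron of *Blcap*, had 23.3, 24.4 and 24.6 CPM and 5.32, 5.80 and 5.96 CPM (−2.04, SE 0.096). *Grb10* had 457, 469 and 466 CPM and 118, 124 and 122 CPM (−1.90, SE 0.027). The groups did not overlap for *Peg10*, *Nnat* and *Grb10*, with adjusted p of at most 2.10e-13.

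At the *Peg3* cluster of proximal chromosome 7, the shared bidirectional promoter shown above serves *Peg3* and the ubiquitin protease gene *Usp29*. *Peg3* had 505, 498 and 515 CPM in wild-type set A and 247, 238 and 250.2 CPM in triple mutant cells, a log2 fold change of −1.01 (SE 0.025) that stood at the fold threshold and was not called with RLE size factors (−0.98), with DESeq2 (−0.998), with at least 10 counts in every library (−0.913), against wild-type set B (−0.951) or without library 2 of the mutant (−0.999). *Usp29* had 9.85, 9.87 and 7.27 CPM and 15.8, 13.3 and 16.1 CPM, all higher in the mutant, at a log2 fold change of 0.78 (SE 0.122) that did not pass the fold threshold. *Zim1*, a maternally expressed zinc finger gene beside *Peg3*, had 2.68, 2.22 and 4.07 CPM and 1.03, 1.05 and 1.04 CPM (−1.48, SE 0.295). The genes of the shared promoter thus had log2 fold changes of opposite sign.

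*Nap1l5* and *Mkrn3*, paternally expressed genes without introns, rose. *Nap1l5* lies within an intron of *Herc3* on the opposite strand and resembles nucleosome assembly proteins, and it had 1.34, 0.649 and 1.21 CPM in wild-type set A and 3.43, 3.76 and 4.33 CPM in triple mutant cells (log2 fold change 1.88, SE 0.273, adjusted p = 3.84e-06). *Mkrn3*, a ubiquitin ligase gene of the *Snrpn* cluster that restrains the onset of puberty, had 9.53, 7.78 and 9.99 CPM and 24.8, 23.0 and 24.0 CPM (1.43, SE 0.096). The mutant libraries lay above all wild-type libraries for both. The other genes of the *Snrpn* cluster (*Snrpn*, *Ndn*, *Magel2*, *Peg12* and *Ube3a*) had log2 fold changes of 0.19 to 0.59 and were not called. The remaining genes with a promoter in a germline DMR (*Mest*, *Plagl1*, *Impact*, *Zrsr1*, *Nespas*, *Peg13* and *Sgce*) had log2 fold changes of −0.50 to 0.57 and were not called, and *Trappc9*, *Gnas*, *Inpp5f* and *Zdbf2* had −0.57 to 0.32. *Zrsr1* has a close paralog, so that its counts are uncertain.

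Set against constitutive *Hp1α/β* Δ/Δ ESCs, the triple mutant had 16 of 36 genes called, 6 higher and 10 lower, beside 41.4% of all genes tested (25.4% higher and 16% lower). Both comparisons share the libraries of triple mutant cells. The values side by side were 5.08 and 2.45 for *Airn*, and 1.64 and 1.23 for *Igf2r*. *Meg3*, *Rian*, *Mirg*, *Rtl1* and *Dlk1* had log2 fold changes of −2.49 to −1.49 against *Hp1α/β* Δ/Δ ESCs, all called. *Slc22a18* was called lower at −1.08, but not without library 3 of *Hp1α/β* Δ/Δ ESCs (−0.86) or library 1 of the triple mutant (−0.944). *Cdkn1c* was at −0.83 and *Grb10* at −0.98 and neither was called, with 28.7, 29.2 and 26.5 CPM and 244, 238 and 246 CPM, respectively, in *Hp1α/β* Δ/Δ ESCs. The genes higher against *Hp1α/β* Δ/Δ ESCs were *Igf2r*, *Airn*, *Usp29* (1.15), *Peg13* (1.44), *Mkrn3* (1.61) and *Nap1l5* (3.10).

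Few imprinted genes passed the fold threshold after the loss of 1 HP1 protein, and few of all genes did. An adjusted p under 0.05 alone was reached by 23 imprinted genes in *Hp1α* Δ/Δ, 18 in *Hp1β* Δ/Δ and 21 in *Hp1γ* Δ/Δ ESCs, beside 45%, 51.1% and 46.7% of all genes tested. In *Hp1α* Δ/Δ ESCs 1 of 35 genes was called, beside 4.87% of all genes tested (1.56% higher and 3.31% lower): *Magel2*, a ubiquitin ligase regulator of the *Snrpn* cluster, was higher (log2 fold change 1.35, SE 0.181), with 6.67, 7.47 and 8.16 CPM against 2.27, 3.57 and 2.86 CPM in wild-type set A. Against wild-type set B it had a log2 fold change of 0.98 and was not called. In *Hp1β* Δ/Δ ESCs 2 of 36 genes were called, beside 9.1% of all genes tested (2.75% higher and 6.36% lower). *Sgce* was lower, with 1.21, 1.55 and 1.55 CPM against 4.16, 4.68 and 4.12 CPM (−1.60, SE 0.220, adjusted p = 1.19e-04), and *Airn* was higher, with 1.15, 1.14 and 0.485 CPM against 0.370, 0.0463 and 0.242 CPM (2.03, SE 0.596, adjusted p = 0.0142). In *Hp1γ* Δ/Δ ESCs 1 of 35 genes was called, beside 5.59% of all genes tested (2.04% higher and 3.55% lower): *Ascl2* was lower, with 4.36, 2.76 and 3.94 CPM against 7.91, 6.25 and 8.39 CPM (−1.04, SE 0.183). The call of *Airn* was lost without library 2 of the mutant (1.84) or of wild-type set A (1.56), and that of *Ascl2* without library 2 of the mutant (−0.86) or library 3 of wild-type set A (−0.96). *Peg10*, the neighbour of *Sgce*, had 283, 287 and 289.6 CPM in *Hp1β* Δ/Δ ESCs, a log2 fold change of −0.27 that was not called.

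Loss of both HP1α and HP1β gave calls for 3 of 36 genes, 1 higher and 2 lower, in *Hp1α/β* Δ/Δ ESCs, beside 8.15% of all genes tested (2.96% higher and 5.19% lower). *Airn* was higher, with 1.19, 1.33 and 1.60 CPM (log2 fold change 2.61, SE 0.508, adjusted p = 4.41e-04). *Cdkn1c* was lower, with 28.7, 29.2 and 26.5 CPM (−1.52, SE 0.059), and *Nap1l5* was lower, with 0.618, 0.332 and 0.423 CPM (−1.23, SE 0.444). The last call was lost with DESeq2 (−1.23, adjusted p above the threshold), against wild-type set B (−0.52), and without library 2 or 3 of the mutant or library 1 or 3 of wild-type set A (−1.18 to −1.03). *Airn* was thus called higher in *Hp1β* Δ/Δ, *Hp1α/β* Δ/Δ and triple mutant cells against wild-type set A. Of 7 tested trophoblast markers 5 were higher in *Hp1β* Δ/Δ ESCs and 5 in *Hp1α/β* Δ/Δ ESCs, with summed levels of 446 to 521 and 573 to 583 CPM against 139.6 to 150.4 CPM in wild-type set A. *Airn* was not tested in *Hp1α* Δ/Δ and *Hp1γ* Δ/Δ ESCs, where it had 0.694, 0.0442 and 0.334 CPM and 0.359, 0.495 and 0.463 CPM, respectively.

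In *Hp1β/γ* Δ/Δ ESCs, compared with wild-type set B, 10 of 35 genes were called, 1 higher and 9 lower, beside 11.9% of all genes tested (7.32% higher and 4.54% lower). *Airn* was the gene that rose, with 1.19, 0.785 and 0.966 CPM against 0.543, 0.403 and 0.137 CPM (log2 fold change 1.44, SE 0.413, adjusted p = 0.00872), a call that was lost without library 3 of wild-type set B (1.05, adjusted p = 0.0505). *Peg13* held 2, 1 and 1 reads against 32, 27 and 17 reads in wild-type set B, a ratio of rates of 21.0-fold (95% interval for counting error 7.87 to 79.0). *Nnat* had 6.26, 4.54 and 3.79 CPM against 29.2, 31.4 and 27.5 CPM (−2.60, SE 0.126). Both were far below the wild-type range. In these ESCs 4 of 7 tested trophoblast markers were higher, with a summed level of 806 to 813 CPM against 231 to 246 CPM in wild-type set B, and feeder fibroblast markers summed to 50.6 to 51.1 CPM against 57.2 to 66.4 CPM. Their part in these results was not tested.

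The other genes lower in *Hp1β/γ* Δ/Δ ESCs came from several clusters. *Zdbf2*, a paternally expressed gene that promotes growth after birth, had 41.4, 39.6 and 37.2 CPM against 110.4, 101 and 98.9 CPM (log2 fold change −1.39, SE 0.057, adjusted p = 2.46e-11). *Grb10* had 153, 148 and 145 CPM against 389, 398 and 406 CPM (−1.42, SE 0.043). The groups of both were well apart. *Peg3* had 250.3, 249 and 234 CPM against 505, 487 and 477 CPM (−1.0, at the fold threshold, and between −0.968 and −0.999 and not called with RLE size factors, with DESeq2, with at least 10 counts in every library or without library 3 of the mutant or library 1 of wild-type set B), and *Usp29* had 4.27, 3.84 and 3.75 CPM against 9.77, 8.56 and 8.23 CPM (−1.16, SE 0.127). *Zim1*, *Ascl2* and *Slc22a18* had log2 fold changes of −1.27 to −1.18, and *Slc22a18* was not called against wild-type set A. In contrast, the genes of the *Dlk1*–*Meg3* cluster were not called and had log2 fold changes of −0.58 to 0.24, with *Meg3* at 335, 337 and 338 CPM.

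In *Hp1α/γ* Δ/Δ ESCs, compared with wild-type set B, 15 of 34 genes were called and all 15 were lower, beside 23.1% of all genes tested (6.75% higher and 16.3% lower). Without library 2, which stood apart, 13 genes were called, 12 of these 15 and *Nap1l5*. The share of all genes called without library 2 was not computed. The genes with a promoter in a germline DMR gave 6 of the 15 calls among 13 tested. *Peg3* had 124, 52.2 and 119.6 CPM against 505, 487 and 477 CPM, a log2 fold change of −2.34 (adjusted p = 0.00131), or −2.01 without library 2. *Usp29* had 1.61, 0.715 and 1.59 CPM against 9.77, 8.56 and 8.23 CPM (−2.77, or −2.47 without library 2). *Nnat* had 6.70, 0.935 and 4.48 CPM against 29.2, 31.4 and 27.5 CPM (−2.87, or −2.40). All libraries of the mutant, library 2 being the lowest, lay below wild-type for these 3 genes. *Peg13* held 1, 3 and 0 reads against 32, 27 and 17 reads, a ratio of rates of 20.6-fold (95% interval for counting error 7.71 to 77.4), or 54.8-fold (9.54 to 2191) without library 2, which holds 3 of the 4 reads. *Nap1l5*, which was too low for the test, held 3, 0 and 1 reads against 9, 17 and 16 reads (11.4-fold, 4.12 to 43.6, or 7.57-fold, 2.75 to 29.1, without library 2). *Airn* held no read in any of the 3 libraries and 11, 9 and 3 reads in wild-type set B, at least 8.29-fold lower when 3 reads are allowed over the group, or 5.53-fold without library 2.

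Further calls in *Hp1α/γ* Δ/Δ ESCs fell in the *Peg10*, *Snrpn*, *Kcnq1* and *Dlk1*–*Meg3* clusters. *Sgce* had 1.08, 1.59 and 1.03 CPM against 5.38, 4.03 and 4.76 CPM (log2 fold change −1.99, or −2.16 without library 2), and *Peg10* had 181, 107 and 182 CPM against 323, 329.6 and 341 CPM (−1.11, or −0.87 and not called without library 2). *Magel2* had 0.538, 0.385 and 0.746 CPM against 2.66, 3.90 and 4.71 CPM (−2.77, or −2.54), and its neighbour *Peg12* was at −1.35, or −1.24. *Magel2* was thus below the wild-type range in *Hp1α/γ* Δ/Δ ESCs and above it in *Hp1α* Δ/Δ ESCs. *Cdkn1c* (−1.90), *Ascl2* (−1.77), *Zim1* (−2.18) and *Dlk1* (−2.11) remained called without library 2, at −2.18, −1.77, −2.27 and −2.30, and so did *Rian* (−1.31 and −1.15). *Meg3* and *Inpp5f*, at −1.05 and −1.01, were not called without it (−0.94 and −0.91), and *Inpp5f* was not called without library 1 of wild-type set B either (−0.969). The fibroblast markers, of which 11 of 13 were detected, summed to 17.1 to 21.5 CPM in these ESCs against 57.2 to 66.4 CPM in wild-type set B. Their median log2 fold change was −2.33, with 8 of 9 tested markers lower and 1 higher, and their part in these results was not tested.

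**Figure D4:**
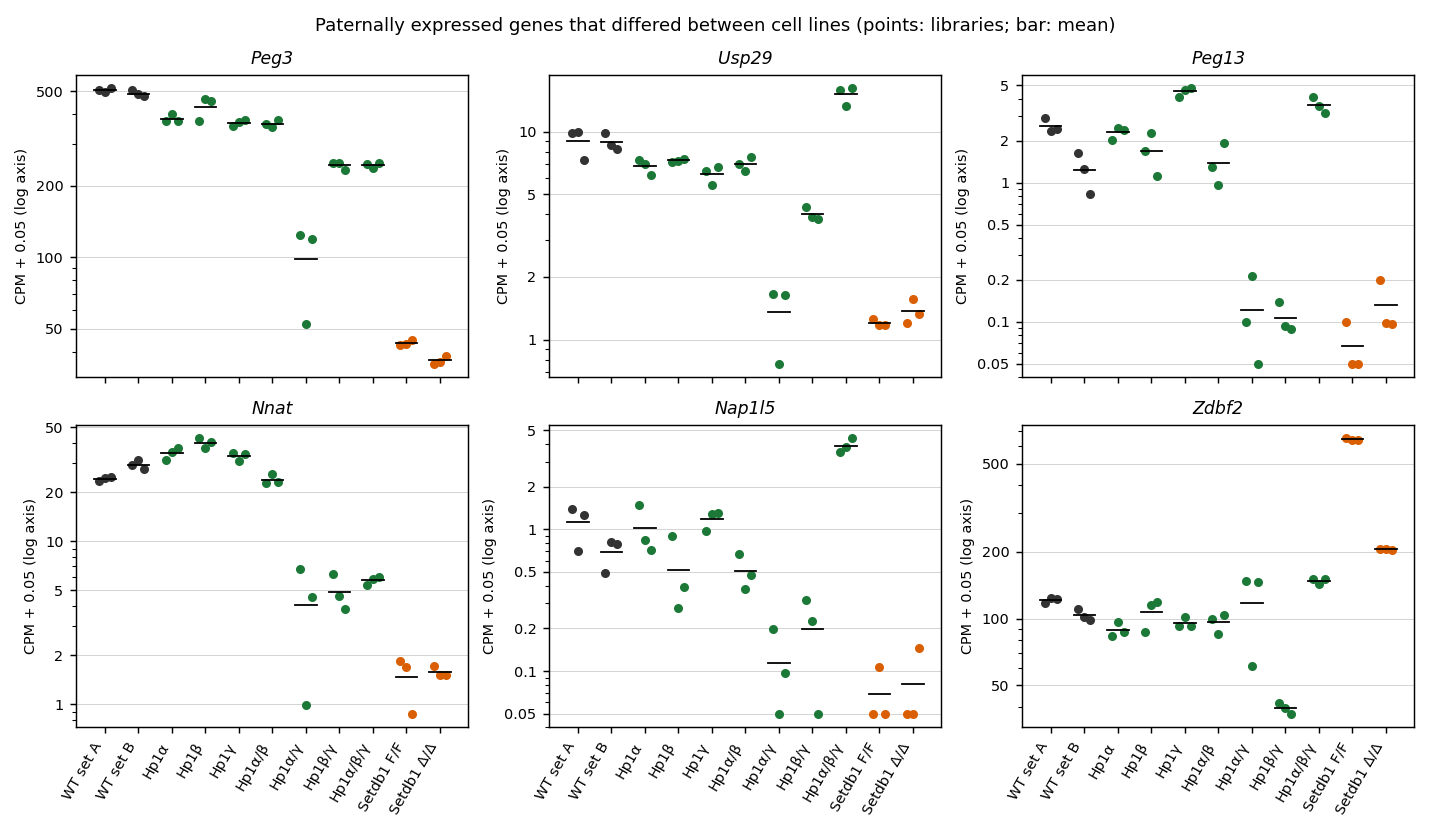
CPM plus 0.05 on a log axis for Peg3, Usp29, Peg13, Nnat, Nap1l5 and Zdbf2 in the 11 conditions, with each library as a point (wild-type black, Hp1 mutants green, Setdb1 lines orange) and the mean as a line. Peg3 was at 42.6 to 44.6 CPM in Setdb1 F/F ESCs against 498 to 515 CPM in wild-type set A, while Zdbf2 was at 640 to 651 CPM against 118 to 124 CPM.

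*Setdb1* F/F ESCs, the control of the *Setdb1* knockout, differed from wild-type ESCs at many imprinted genes before *Setdb1* was deleted. This comparison was chosen after the levels had been seen. Against wild-type set A, 15 of 35 genes were called, 1 higher and 14 lower, beside 28.4% of all genes tested (12.2% higher and 16.1% lower). Of 14 tested genes with a promoter in a germline DMR, 8 were lower, with a median log2 fold change of −1.59 against 0.002 over all genes tested. *Peg3* had 42.6, 43.1 and 44.6 CPM against 505, 498 and 515 CPM (log2 fold change −3.55, SE 0.029, adjusted p = 1.42e-23). *Usp29* had 1.2, 1.13 and 1.12 CPM against 9.85, 9.87 and 7.27 CPM (−2.97, SE 0.196), so that both sides of the shared promoter were low. *Nnat* had 1.80, 1.64 and 0.827 CPM against 23.3, 24.4 and 24.6 CPM (−4.06, SE 0.148). *Peg13* held 1, 0 and 0 reads against 62, 50 and 49 reads in wild-type set A, a ratio of rates of 148-fold (95% interval for counting error 26.2 to 5872), and *Nap1l5* held 0, 1 and 0 reads against 29, 14 and 25 (62.4-fold, 10.8 to 2501). *Peg10*, *Sgce* and *Nespas* were also lower, at −2.25, −1.30 and −1.87.

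Other genes with a promoter in a germline DMR were not called in *Setdb1* F/F ESCs. *Snrpn* had 147, 138 and 139 CPM against 139, 149 and 137 CPM (log2 fold change −0.01), *Impact* had 141, 132 and 146 CPM against 119, 119 and 122 CPM (0.21), and *Mest*, *Plagl1*, *Zrsr1* and *Kcnq1ot1* were at −0.91 to 0.90. *Zdbf2* was the gene called higher, with 651, 639.7 and 642 CPM against 118, 124 and 123 CPM (2.40, SE 0.024, adjusted p = 2.00e-22). *Dlk1* had 1.60, 1.35 and 1.95 CPM against 9.90, 9.496 and 11.8 CPM (−2.68, SE 0.171). *Ascl2* was at −1.83, and *Zim1*, *Cdkn1c*, *Phlda2* and *Meg3* were at −1.09 to −1.02 and did not pass the fold threshold against wild-type set B (−0.94 to −0.55). The calls of *Phlda2*, without library 1 of wild-type set A (−0.995), and of *Zim1*, without library 2 of *Setdb1* F/F ESCs (−0.986) or library 3 of wild-type set A (−0.819), were lost as well. In *Setdb1* F/F ESCs the fibroblast markers, of which 9 of 13 were detected, summed to 21.0 to 21.8 CPM against 37.3 to 39.0 CPM in wild-type set A. Their median log2 fold change was −3.22, with 6 of 8 tested markers lower and 1 higher. Of 5 neural markers 4 were lower and 1 higher (a summed level of 82.0 to 84.8 CPM against 205 to 220.03 CPM), and of 6 tested trophoblast markers 3 were lower and 1 higher.

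In *Setdb1* Δ/Δ cells against *Setdb1* F/F ESCs, 12 of 33 genes were called, 2 higher and 10 lower, beside 29.9% of all genes tested (18.5% higher and 11.4% lower). Of 9 maternally expressed genes tested, 6 were lower, with a median log2 fold change of −1.19. Of these, *Phlda2* and *Slc22a18* share a cluster, as do *Meg3*, *Rian* and *Mirg*, so that they are not separate loci. Of 12 tested genes with a promoter in a germline DMR, 1 was lower, with a median of −0.06. Marker levels moved too in this comparison, with pluripotency markers at 4981 to 5027 CPM against 7687 to 7723 CPM in *Setdb1* F/F ESCs, primitive endoderm markers at 79.9 to 84.3 CPM against 382 to 398 CPM (6 of 9 lower and 1 higher) and 2 of 4 tested trophoblast markers lower, and their part was not tested. *Peg13*, *Nap1l5* and *Airn* were too low to be tested, with at most 3 reads of any of them in a library of *Setdb1* Δ/Δ cells. *Peg3* (35.5, 36.2 and 38.3 CPM), *Usp29* (1.15, 1.52 and 1.27 CPM) and *Nnat* (1.66, 1.47 and 1.46 CPM) had log2 fold changes of −0.23 to 0.21 and were not called.

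The genes lower in *Setdb1* Δ/Δ cells were *Phlda2* and *Slc22a18* of the *Kcnq1* cluster, *Meg3*, *Rian*, *Mirg* and *Rtl1* of the *Dlk1*–*Meg3* cluster, *Grb10*, *Snrpn*, *Zdbf2* and *Zim1*. *Phlda2* had 55.4, 54.6 and 57.5 CPM in *Setdb1* F/F ESCs and 7.13, 7.11 and 7.41 CPM in *Setdb1* Δ/Δ cells (log2 fold change −2.94, SE 0.061, adjusted p = 1.74e-17). *Slc22a18* had 5.20, 5.70 and 5.43 CPM and 2.26, 1.89 and 1.27 CPM (−1.57, SE 0.191), whereas *Cdkn1c* in the same cluster had 40.1, 37.8 and 36.0 CPM and 35, 36.0 and 36.3 CPM (−0.07, not called). The RNAs of the maternal chromosome 12 fell together. *Meg3* had 200.3, 202 and 201 CPM and 82.1, 89.5 and 90.1 CPM (−1.19, SE 0.034), and *Rian* had 214, 201 and 213 CPM and 60.9, 61.1 and 59.2 CPM (−1.78, SE 0.033). *Mirg* had 8.10, 9.48 and 8.21 CPM and 2.56, 1.71 and 1.32 CPM (−2.19, SE 0.186). *Rtl1*, known as paternally expressed, had 2.1, 1.35 and 2.60 CPM and 0.603, 0.332 and 0.236 CPM (−2.35, SE 0.368). As above, reads of *Rtl1* cannot be assigned to its strand with certainty. *Dlk1*, already low in *Setdb1* F/F ESCs, had 1.76, 1.56 and 1.46 CPM (−0.02).

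*Grb10* had 376, 374 and 379.5 CPM in *Setdb1* F/F ESCs and 97.3, 97.0 and 96.9 CPM in *Setdb1* Δ/Δ cells (log2 fold change −1.94, SE 0.024, adjusted p = 1.75e-20). Among the 12 tested genes with a promoter in a germline DMR, *Snrpn* was the one called, with 147, 138 and 139 CPM and 60.8, 58.3 and 61.1 CPM (−1.22, SE 0.037). It overlaps *Gm38393* by 22570 bases and *Snurf* by 9601 bases on the same strand, so that shared reads cannot be assigned with certainty. The *Snrpn* cluster did not move as a whole, since *Ndn*, a gene of the MAGE family known from Prader-Willi syndrome, and *Peg12* rose. *Ndn* had 7.80, 8.02 and 9.27 CPM and 18.03, 21.7 and 20.0 CPM (1.27, SE 0.094), and *Peg12* had 1.5, 1.75 and 1.54 CPM and 6.13, 4.64 and 5.28 CPM (1.76, SE 0.183). *Zdbf2* had 651, 639.7 and 642 CPM and 206, 207 and 204 CPM (−1.63, SE 0.021), which left it above the wild-type range of 98.9 to 124 CPM. *Zim1* had 1.75, 1.19 and 1.24 CPM and 0.653, 0.379 and 0.943 CPM (−1.07, SE 0.341), a call that was lost without library 1 of *Setdb1* F/F ESCs (−0.87) or library 2 of *Setdb1* Δ/Δ cells (−0.78).

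**Figure D5:**
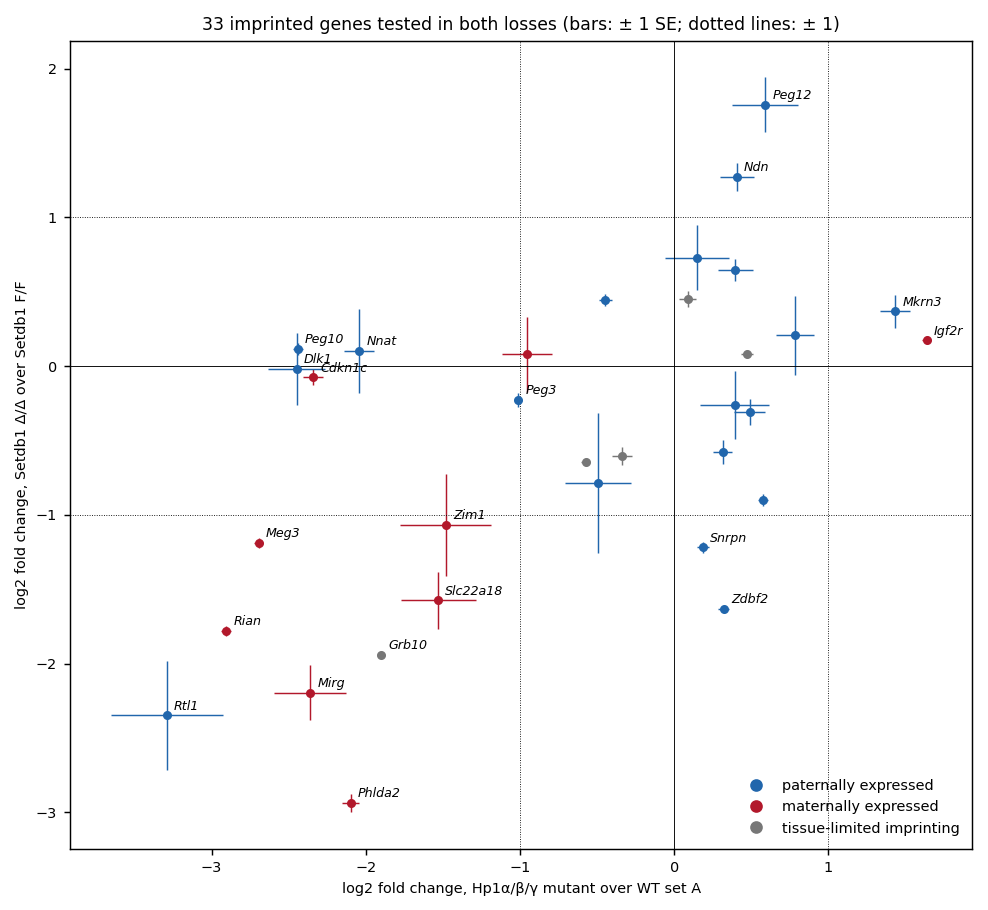
Log2 fold change in triple mutant cells over wild-type set A (horizontal) and in Setdb1 Δ/Δ cells over Setdb1 F/F ESCs (vertical) for the 33 genes tested in both, coloured by the expressed allele, with bars of 1 SE and names for genes called in either. Meg3, Rian, Mirg, Rtl1, Phlda2, Slc22a18, Zim1 and Grb10 lie at the lower left, below −1 on both axes, whereas Igf2r is at 1.64 and 0.17 and Peg10 at −2.44 and 0.12.

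The effects of losing all HP1 proteins and of losing SETDB1, which share no library, were then set against each other in 1 model over 12 libraries. The HP1 effect is taken against wild-type set A, and the SETDB1 effect against its own floxed line. The parental line thus also enters the difference and cannot be told apart from HP1 loss, and the part of Cre was not tested. Among 36 genes, 14 differed (6 with a higher and 8 with a lower effect of HP1 loss), beside 31.9% of all genes tested (15.4% with a higher and 16.5% with a lower effect). *Meg3*, *Rian*, *Mirg*, *Rtl1*, *Phlda2*, *Slc22a18*, *Zim1* and *Grb10* were called lower in both losses. For *Grb10*, *Phlda2*, *Slc22a18*, *Zim1*, *Mirg* and *Rtl1* the difference was not called, at −0.96 to 0.81 on the log2 scale, which does not show that the effects were alike. *Meg3* and *Rian* fell further in triple mutant cells than in *Setdb1* Δ/Δ cells, with differences of −1.53 and −1.15 (SE 0.047 and 0.047). *Igf2r* and *Airn* had differences of 1.44 and 5.72 (SE 0.039 and 1.58). The value of *Airn* rests on few reads in the *Setdb1* libraries (2, 0 and 1 in *Setdb1* F/F ESCs and 0, 1 and 1 in *Setdb1* Δ/Δ cells), and its call was lost without library 1 of *Setdb1* F/F ESCs (4.90, adjusted p = 0.0928). *Peg10*, *Dlk1*, *Cdkn1c* and *Nnat* had differences of −2.58 to −2.17, and each of them was already lower in *Setdb1* F/F ESCs than in wild-type set A. *Meg3*, *Phlda2* and *Zim1* were also called lower in that comparison, and were called lower again in *Setdb1* Δ/Δ cells.

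Genes known to keep or erase imprints were read beside the imprinted genes. Of 27 such regulators, 26 were tested in the 3 single mutants and in *Hp1α/β* Δ/Δ ESCs, where 17 to 23 had an unadjusted p under 0.05, but 0 passed the fold threshold in edgeR or DESeq2 (log2 fold changes of −0.79 to 0.84 in edgeR). In triple mutant cells 3 were higher and 8 lower (40.7% of the 27, beside 42.3% of all genes tested). *Zfp57*, whose product binds germline DMRs, was at a log2 fold change of −1.91 (SE 0.034), the demethylase gene *Tet1* at −2.05, the de novo methyltransferase gene *Dnmt3b* at −1.69, and the CTCF paralog *Ctcfl*, with 27, 23 and 33 reads against 2, 0 and 4 in wild-type set A, at 3.60. In *Setdb1* Δ/Δ cells 3 were higher and 2 lower (18.5% against 29.9%), with *Ctcfl* at 6.93, *Dppa3*, which guards maternal methylation in the zygote, at 2.45, *Dnmt3l* at 2.13 and the H3K9 methyltransferase gene *Ehmt2* at −1.54. In *Hp1α/γ* Δ/Δ ESCs 3 were higher and 4 lower (26.9% against 23.1%), or 3 and 3 without library 2, with *Tet2* at 1.77 (2.16 without library 2) and *Dnmt3a* at −1.54 (−1.47). In *Hp1β/γ* Δ/Δ ESCs 1 of 27, *Tet1*, was lower (−1.13), 3.7% against 11.9%. *Setdb1* F/F ESCs had 2 higher and 3 lower than wild-type set A (19.2% against 28.4%), with *Dppa3* at −3.80, *Dnmt3l* at −2.77 and *Dnmt3b* at −2.17.

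Genes that lie in or beside the same clusters were listed as neighbours, 69 in all. In triple mutant cells 9 of 58 tested were higher and 15 lower (41.4%, beside 42.3% of all genes tested), with a median log2 fold change of −0.28. The organic cation transporter gene *Slc22a3*, which lies beyond the 3′ end of *Igf2r* and is known to be silenced through *Airn* in the placenta, held 30, 23 and 29 reads against 2, 0 and 0 in wild-type set A (45.3-fold, 95% interval for counting error 12.2 to 380.6). At the *Zdbf2* locus *Gpr1* was at 3.27 and *Adam23* at −3.50, while *Zfp264*, beside the *Peg3* cluster, was at 3.92. In *Setdb1* Δ/Δ cells 5 of 54 were higher and 5 lower (18.5% against 29.9%), with *Tnfrsf23* of the distal chromosome 7 cluster at 4.69 and *Klf14*, near *Mest*, with 22, 18 and 13 reads against 0, 2 and 0 (28.3-fold, 7.45 to 239.6). Between 2 and 6 of the neighbours were called in each single mutant and in *Hp1α/β* Δ/Δ ESCs (3.57% to 11.1%, beside 4.87% to 9.1% of all genes). *Hp1α/γ* Δ/Δ ESCs had 13 calls (23.6% against 23.1%), and also 13 without library 2, where the share of all genes was not computed. *Hp1β/γ* Δ/Δ ESCs had 12 calls (22.2% against 11.9%). *Setdb1* F/F ESCs had 4 of 55 tested neighbours higher and 8 lower than wild-type set A (21.8% against 28.4%). Of these, *Atp10a* was at −4.57, *Fam13a* at −3.02, *Asb4* at −2.98 and *Adam23*, next to *Zdbf2*, at 2.29.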

How the data were processed

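The 33 RNA-seq libraries (11 conditions, 3 each, C57BL/6 mouse ESCs) were grouped by the genotype and title in their labels. The authors deposited 8 tables of 55487 genes, each with a mutant and its control. The expected counts deposited by the authors are estimated reads per gene without normalization (11.2% to 15.5% of values are not whole) and were rounded. The authors also deposited TPM values (64 columns), their own fold changes and p-values, none of which were used, and gene lengths in bases (other), which were used for levels per kb. The submitters' processing notes name GRCm38.p5, TopHat2 2.1.1, RSEM and edgeR without roles, and the counting settings are not given in the sources used here. The labels name a TruSeq RNA kit, and the study's methods a stranded total RNA kit. Reads shared by overlapping genes, such as *Peg13* with *Trappc9*, *Kcnq1ot1* with *Kcnq1* and *Nespas* with *Gnas*, cannot be assigned with certainty. The 15 columns that repeat a library across tables were identical (largest difference 0).

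Each comparison was fitted on its 6 libraries by edgeR 4.0.16 (R 4.3.3, with limma 3.58.1), with filterByExpr (minimum count 10), TMM scaling, glmQLFit and glmQLFTest over all genes. A call needs an adjusted p (Benjamini-Hochberg) under 0.05 together with a fitted log2 fold change beyond 1 in either direction. The SE is the absolute log2 fold change divided by the square root of F. Printed CPM come from a scaling of all 33 libraries together, so that fitted fold changes can differ slightly from their ratio. Chi-square per gene compares the counts of library pairs of a condition. Intervals of low counts are exact and cover counting error only. Positions are those of GENCODE M21 (GRCm38), which held 55141 of the identifiers. The steps were tested on simulated counts with 200 changed genes.

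The 37 genes, the regulators, the neighbours and the marker lists were chosen with earlier results of these data known. Values per library are given for genes called in triple mutant or *Setdb1* Δ/Δ cells or in at least 2 of the 6 single and double mutants, and for others where a comparison rests on them. At most 4 regulators and 4 neighbours per comparison are named. They were taken from the 4 called genes with the largest absolute log2 fold change, and not all 4 are named in each comparison. Alternatives were RLE size factors, DESeq2 1.42.0, testing all genes with 1 count, testing those with 10 counts or more in each library, the adjusted p alone, wild-type libraries of the other set, a replicate block, and leaving out 1 library at a time. The comparison of *Setdb1* F/F ESCs with wild-type ESCs was chosen after seeing the data. Total counts of 17331005 to 25743236 leave genes such as *Kcnq1* and *Airn* near the limit of detection. DNA methylation, ChIP-seq and allele-specific reads were not analysed here.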

Additional observations from a re-analysis of the deposited data

Results flagged for a closer look

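The effects of losing all HP1 proteins (triple mutant cells over wild-type set A) and of losing SETDB1 (*Setdb1* Δ/Δ cells over *Setdb1* F/F ESCs) differed for 14 imprinted genes by edgeR's test of the difference (adjusted p under 0.05, difference beyond 1 in either direction). The difference is the effect of HP1 loss minus that of SETDB1 loss on the log2 scale. Only the SETDB1 effect has a floxed control, so that the parental line also enters the difference and cannot be told apart from HP1 loss. It was positive for *Igf2r* (1.44), *Airn* (5.72), *Snrpn* (1.38), *Mkrn3* (1.04), *Impact* (1.45) and *Zdbf2* (1.93). For *Igf2r*, *Airn* and *Mkrn3* the gene rose after HP1 loss. For *Snrpn* and *Zdbf2* the gene fell after SETDB1 loss, by 1.22 and 1.63 on the log2 scale, and was at 0.19 and 0.32 after HP1 loss. *Impact* had log2 fold changes of 0.57 and −0.90, neither of which passed the fold threshold in its own comparison. The difference was negative for *Peg10* (−2.58), *Dlk1* (−2.46), *Cdkn1c* (−2.30), *Nnat* (−2.17), *Meg3* (−1.53), *Peg12* (−1.20), *Rian* (−1.15) and *Ascl2* (−1.06). *Peg10*, *Dlk1*, *Cdkn1c* and *Nnat* fell after HP1 loss and were at −0.07 to 0.12 after SETDB1 loss, from a level in *Setdb1* F/F ESCs that was below that of wild-type set A. *Meg3* was also below wild-type set A in *Setdb1* F/F ESCs (−1.02) and fell after SETDB1 loss (−1.19). The call of *Airn* was lost without library 1 of *Setdb1* F/F ESCs, that of *Mkrn3* without library 1 of *Setdb1* F/F ESCs, library 1 of *Setdb1* Δ/Δ cells or library 2 of wild-type set A (0.92 to 0.99), and that of *Ascl2* without library 1 of the triple mutant or library 3 of any of the other groups (−0.99 to −0.82). Groups of 3 libraries are too small for a formal test of outlying libraries, and the chi-square per gene of library pairs given above is descriptive.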

How the results depend on the processing

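Over the 107 calls of a member in a comparison, 688 values under an alternative were computed, with the libraries left out in turn counted as 1. All kept their direction, 651 stayed past both thresholds, and 37 did not (17 with a library left out, 4 in DESeq2, 3 with RLE, 4 with the filter of 10 counts or more in each library and 9 with the other wild-type set). With the adjusted p alone, which called 24.8% to 81.6% of all genes tested, the number of imprinted genes called was 23 for *Hp1α* Δ/Δ, 18 for *Hp1β* Δ/Δ, 21 for *Hp1γ* Δ/Δ, 22 for *Hp1α/β* Δ/Δ, 21 for *Hp1α/γ* Δ/Δ, 25 for *Hp1β/γ* Δ/Δ and 33 for triple mutant cells, 30 for triple mutant against *Hp1α/β* Δ/Δ cells, 26 for *Setdb1* Δ/Δ cells, 14 between the wild-type sets, 31 for *Setdb1* F/F against wild-type ESCs and 23 for the difference between HP1 and SETDB1 loss. For *Hp1β* Δ/Δ cells the count of 2 was 4 without a filter and 1 with 10 counts or more in each library. For *Hp1γ* Δ/Δ cells the count of 1 was 4 with the other wild-type set, and for *Hp1α* Δ/Δ cells that set also gave 1 gene, but a different one. With 1 library left out, the counts ran from 1 to 2 for *Hp1α* Δ/Δ (2 without its library 2), 1 to 3 for *Hp1β* Δ/Δ (1 without its library 2 or library 2 of wild-type set A), 0 to 1 for *Hp1γ* Δ/Δ (0 in edgeR without its library 2 or library 3 of wild-type set A, with an unadjusted p under 0.05 for 20 and 22 genes), 2 to 5 for *Hp1α/β* Δ/Δ (5 without library 2 of wild-type set A), 13 to 16 for *Hp1α/γ* Δ/Δ, 10 to 11 for *Hp1β/γ* Δ/Δ, 17 to 18 for triple mutant and 11 to 13 for *Setdb1* Δ/Δ cells. They ran from 0 to 1 between the wild-type sets (0 in edgeR without library 3 of set B or library 1 of set A, with such a p for 15 genes), 14 to 15 for *Setdb1* F/F ESCs and 12 to 14 for the difference between losses. Libraries with the same replicate number did not deviate together (r of −0.06 to 0.055), so the number was not taken to pair them, and the replicate block changed no call among the 107. What caused these shifts was not tested. The share of all genes called was computed only for the main fits and for the adjusted p alone. Under the other alternatives, a shift in the number of imprinted genes called cannot be told from a general change in calls. Depth limits *Airn*, *Kcnq1* and other members with few reads, whose fold changes move with the filter.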
